A study of Homo sapiens with 6 samples.

Results

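The genes described here are 10 imprinted growth regulator genes: H19, IGF2, CDKN1C, PEG10, SGCE, MEST, PEG3, PLAGL1, PHLDA2 and GRB10. They were chosen by name, and all 10 are among the 26255 genes listed in the RNA sequencing of H1299 cells, an established human non-small cell lung cancer line. In these cells Ephexin1, a guanine nucleotide exchange factor encoded by NGEF, was targeted with a short hairpin RNA. The study checked the knockdown by western blot, at the level of protein, which the RNA values below do not measure. The experiment holds 3 libraries of H1299 cells carrying a control shRNA (shControl) and 3 libraries carrying an Ephexin1 shRNA (shEphexin1), with no other treatment, and addresses which transcripts differ once Ephexin1 is depleted. The study describes stable knockdown cells grown out under drug selection, and the 3 shEphexin1 libraries carry a shared clone-like name in the table, so they may be repeats of 1 clone. The labels do not say whether the replicates were separate cultures. The p-values therefore measure the spread between these libraries, and the clone and the shRNA cannot be told apart.

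Imprinted genes are expressed mainly from the copy inherited from a single parent, and which copy is silent is set by DNA methylation laid down in the egg or the sperm. Many of them act on fetal and placental growth. IGF2, PEG10, MEST and PEG3 are among the genes read from the paternal copy, and H19, CDKN1C and PHLDA2 are among those read from the maternal copy. In tumours the imprint can be lost or the active copy silenced. FPKM, the unit of these data, counts fragments scaled to transcript length and library size. It sums both parental copies, and DNA methylation was not measured, so none of the values below says which copy was read.

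The imprint is carried by the dinucleotide CG, the site of DNA methylation in human cells. The 250 bases before the transcription start are shown for the 4 of the 10 genes with a window in the RefSeq promoter table (GRCh38.p14). Each CG is in capitals. The other genes had no window there. They are written 5′ to 3′ on the strand of the gene, and for a gene with several starts the window with the most CG is shown. The GRB10 window is at chr7:50792875-50793124 (minus strand), that of PLAGL1 at chr6:144008260-144008509 (minus strand), that of MEST at chr7:130486097-130486346 (plus strand) and that of H19 at chr11:2001267-2001516 (minus strand).
GRB10: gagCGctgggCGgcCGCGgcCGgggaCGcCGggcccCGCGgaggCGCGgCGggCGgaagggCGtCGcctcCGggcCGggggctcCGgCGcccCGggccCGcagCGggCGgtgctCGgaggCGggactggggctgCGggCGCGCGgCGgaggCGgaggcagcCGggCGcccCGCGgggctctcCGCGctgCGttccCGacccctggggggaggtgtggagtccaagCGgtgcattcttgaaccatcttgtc
PLAGL1: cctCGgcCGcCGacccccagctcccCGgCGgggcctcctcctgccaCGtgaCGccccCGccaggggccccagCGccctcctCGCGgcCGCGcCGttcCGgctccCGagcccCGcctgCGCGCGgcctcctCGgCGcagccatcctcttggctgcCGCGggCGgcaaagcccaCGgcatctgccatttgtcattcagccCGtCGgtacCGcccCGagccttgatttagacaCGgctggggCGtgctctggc
MEST: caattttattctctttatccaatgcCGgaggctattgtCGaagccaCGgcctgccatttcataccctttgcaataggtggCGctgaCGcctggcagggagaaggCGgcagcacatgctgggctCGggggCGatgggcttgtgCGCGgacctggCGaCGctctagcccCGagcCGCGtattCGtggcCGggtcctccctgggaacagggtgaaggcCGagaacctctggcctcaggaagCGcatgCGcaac
H19: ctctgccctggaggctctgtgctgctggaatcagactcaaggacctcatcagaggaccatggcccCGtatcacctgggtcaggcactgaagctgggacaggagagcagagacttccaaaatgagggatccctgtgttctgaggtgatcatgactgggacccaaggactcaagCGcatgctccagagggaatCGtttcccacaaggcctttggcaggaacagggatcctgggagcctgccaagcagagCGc

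The GRB10 window held 40 CG, and 2.16% of all 35116 promoter windows of this length held at least as many. The PLAGL1 window held 32 CG, a number that 9.52% of the windows reached or passed. The MEST window held 20 CG (reached or passed by 32.4%) and the H19 window 4 CG (reached or passed by 70.7%), against a median of 11 over all windows. CG is its own reverse complement, so 1 strand was searched. For GRB10, PLAGL1 and MEST the window shown was the one with the most CG of 5. The shares count every window singly, so they lean towards CG-rich for these genes. Whether these windows bear an imprint was not tested.

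The values analysed are the FPKM that the authors calculated per gene and library. The number of fragments behind them is not part of the values, so the depth is unknown. Between 16958 and 17509 genes were above 0 in a library. The test took in 16020 genes, those that reached 0.1 FPKM in 3 or more libraries. A gene was called when its adjusted p was 0.025 or less and its difference 2-fold or more, and 303 genes (1.89%) met both. Of the genes tested, 143 (0.893%) were called higher and 160 (0.999%) lower in shEphexin1 cells. Replicate 2 of both groups stood apart from replicates 1 and 3: across genes, its deviation from the group mean fell with GC content (Spearman's rho = -0.688 for shControl and -0.759 for shEphexin1), while rho was between 0.336 and 0.664 in the other libraries. NGEF, the targeted gene, was at 13.3, 11.7 and 16.4 FPKM with shControl and at 9.81, 8.25 and 10.45 FPKM with shEphexin1. The NGEF groups did not overlap, and the shEphexin1 mean was 68.9% of the control mean (log2 fold change -0.53, SE 0.16), which was not called (limma adjusted p = 0.103). The labels name no batch. With a model term that set replicate 2 of both groups apart, added after the data had been seen, NGEF had a limma adjusted p of 0.00572. With a correction for GC content and length it was 0.00119, in both cases under 2-fold. Of 6 lung epithelium markers, NKX2-1 and SCGB1A1 were listed at 0 in every library. Another 2 of the 6 passed the filter, with log2 fold changes of -0.043 and 0.29, and neither was called. The epithelial marker CDH1 was listed at 0 in every library, while VIM, the mesenchymal filament vimentin, was between 1979 and 2670 FPKM. Of the markers of other cell types, PTPRC and CD3E (leukocytes) were listed at 0 in every library, CD68, which is not confined to leukocytes, lay between 37.8 and 71.1 FPKM, and the 3 endothelial markers were at most 0.280 FPKM. Of 5 fibroblast markers COL1A2 was listed at 0 throughout, COL3A1 and PDGFRB were at most 0.0621 FPKM and DCN lay between 0.268 and 0.693 FPKM. COL1A1 was between 0.0813 and 0.123 FPKM with shControl and between 0.168 and 0.387 FPKM with shEphexin1. Of 6 epithelial markers 4 were tested and none was called. Groups did not overlap for 3 of the 4, as for 28.3% of all genes tested. KRT8 (5.13 to 8.44 against 2.65 to 3.48 FPKM) and KRT18 (67.6 to 109.4 against 36.25 to 54.7 FPKM) were lower with shEphexin1, and EPCAM (0 to 0.0663 against 0.108 to 0.220 FPKM) was higher. The part of these markers in the values below was not tested.

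None of the 10 imprinted growth regulators was called in shEphexin1 cells, where 1.89% of all genes tested were called. The 7 genes that passed the filter were SGCE, PEG10, PHLDA2, PLAGL1, CDKN1C, PEG3 and MEST, and H19, IGF2 and GRB10 lay under it. Of the 7, 4 had a log2 fold change above 0 and 3 below 0, from -0.59 for PEG3 to 0.40 for SGCE, with a median of 0.014 against -0.0093 over all genes tested. SGCE alone had an unadjusted p of at most 0.05, as did 23.3% of all genes tested. SGCE and PEG3 were the 2 genes of the 7 whose groups did not overlap, and the same held for 28.3% of all genes tested.

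The 8 genes with a value above 0 lay at very different levels. Over the 6 libraries SGCE averaged 65.7 FPKM and PEG10 63.3 FPKM, higher than 96.0% and 95.8% of the genes listed. PHLDA2 followed at a mean of 19.45 FPKM and PLAGL1 at 5.17 FPKM. CDKN1C averaged 0.740 FPKM, PEG3 0.208 FPKM and MEST 0.196 FPKM. SGCE overlapped with PEG10, MEST with PEG3, and CDKN1C with MEST in their ranges over the libraries, so their order is not set beyond the spread. PHLDA2 and PLAGL1 overlapped with no other member.

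**Figure D1:**
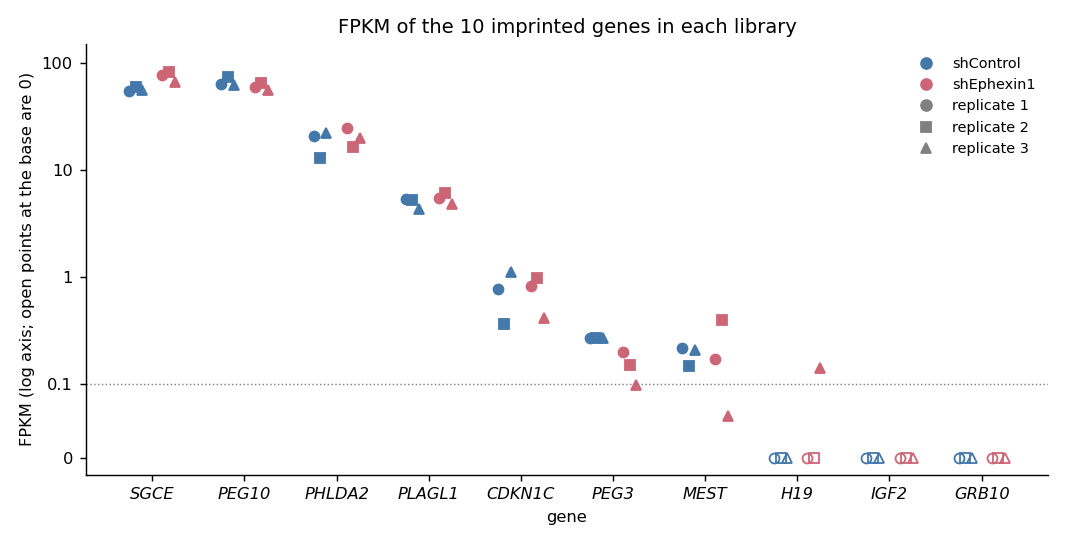
FPKM (log axis, open points at the base are 0) of each imprinted gene in the 3 shControl libraries (blue) and the 3 shEphexin1 libraries (red), with the marker shape giving the replicate number and the dotted line the filter of 0.1 FPKM. SGCE is the one well-expressed gene whose red points all sit above its blue points, from 66.1 to 82.4 FPKM against 54.2 to 59.9 FPKM.

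SGCE and PEG10 are paternally expressed neighbours on the long arm of chromosome 7. SGCE encodes epsilon-sarcoglycan, a membrane protein linked to the dystrophin complex and mutated in myoclonus-dystonia. PEG10 derives from a retrotransposon, is needed for the placenta and is read in several tumours. On GRCh37, SGCE lies on chromosome 7 from 94153516 to 94285884 (minus strand) and PEG10 from 94285637 to 94299007 (plus strand). Their start positions are 247 bases apart in opposite directions, and the gene bodies overlap by that stretch. The libraries were made with a stranded kit, but whether strand was used in the calculation of FPKM is not given in the sources used here.

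SGCE was at 54.2, 59.9 and 55.2 FPKM with shControl and at 76.3, 82.4 and 66.1 FPKM with shEphexin1. Every shEphexin1 library was above every shControl library. The mean was 56.45 ± 3.07 FPKM in control cells and 74.9 ± 8.23 FPKM in Ephexin1-depleted cells (SD, n = 3 each), a ratio of 1.33. The log2 fold change of FPKM + 0.1 was 0.40 (SE 0.12, 95% interval 0.14 to 0.67), with a limma adjusted p of 0.0827, so SGCE did not pass the test. An exact two-sided permutation test gave p = 0.1, the smallest that 3 libraries against 3 can give. In a bulk sample, more cells that express SGCE and more SGCE RNA per cell cannot be told apart, and this holds for each gene below.

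PEG10 was at 63.7, 73.55 and 61.5 FPKM with shControl and at 59.5, 65.4 and 56.3 FPKM with shEphexin1. The groups overlapped, with each shEphexin1 library a little below the shControl library of the same number. The means were 66.3 ± 6.40 and 60.4 ± 4.63 FPKM (SD, n = 3 each), and the log2 fold change was -0.13 (SE 0.11, 95% interval -0.40 to 0.13, limma adjusted p = 0.551). PEG10 thus did not pass the test, and the interval leaves out a change of 2-fold.

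Set against each other within a library, SGCE and PEG10 gave a ratio whose groups did not overlap, as those of SGCE alone did not. How many other pairs of genes separate the groups as far was not tested. The ratio of SGCE to PEG10 FPKM was 0.850, 0.815 and 0.897 with shControl and 1.28, 1.26 and 1.17 with shEphexin1. SGCE was below PEG10 in every control library and above it in every shEphexin1 library. The mean ratio was 0.854 ± 0.0413 in control cells and 1.24 ± 0.0565 in Ephexin1-depleted cells (SD, n = 3 each). The log2 ratio differed by 0.54 between the groups, and by 0.50 to 0.57 when single libraries were dropped. This ratio was chosen after the values had been seen, and the exact two-sided permutation test gave p = 0.1, the smallest possible here.

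The genes around SGCE and PEG10 had fold changes above 0 as well, none of them called (1.89% of all genes tested). Within 1 Mb of the PEG10 start, 9 genes were tested, SGCE among them. All 9 had a log2 fold change above 0, with a median of 0.58, against 7835 of 16020 genes tested in all. GNG11 in this window, named after its values had been seen, had a limma adjusted p of 0.0147 at a log2 fold change of 0.58, under 2-fold. Along the whole long arm, the 407 genes with a mean of at least 1 FPKM had a median log2 fold change of 0.30, while the median over 12211 such genes on all arms was -0.038. With the median of each arm subtracted, the log2 fold change of SGCE was 0.10 (limma adjusted p = 0.639) and that of PEG10 was -0.43 (limma adjusted p = 0.0758). The value of SGCE was thus close to that of its arm, and PEG10 lay below it. That subtraction takes the same value from both genes of a library, so by construction it cannot change the difference between SGCE and PEG10. The part of the shift along the arm in these values was otherwise not tested. The adjusted p of SGCE ranged from 0.0012 to 0.639 over 20 alternative settings of the limma fit, and that of PEG10 from 0.0475 to 0.900. With the term that set replicate 2 apart, SGCE had a limma adjusted p of 0.00416 at the same log2 fold change of 0.40, still under 2-fold. Without replicate 2 of both groups, SGCE stayed at a log2 fold change of 0.38 (limma adjusted p = 0.0366).

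MEST, on the same arm at 130126012 to 130146306 of chromosome 7 (GRCh37, plus strand), encodes an enzyme of the alpha/beta hydrolase fold that is read from the paternal copy in growing mesodermal tissue. MEST was at 0.213, 0.146 and 0.204 FPKM with shControl and at 0.169, 0.392 and 0.0496 FPKM with shEphexin1. The shEphexin1 libraries held both the highest and the lowest value, so the groups overlapped fully. The log2 fold change was -0.079 (SE 0.46, 95% interval -1.15 to 0.99, limma adjusted p = 0.945), an interval that includes a fall of 2-fold. Its direction turned to 0.35 without shEphexin1 replicate 3.

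Around MEST, 13 of 14 tested genes within 1 Mb had a log2 fold change above 0, with a median of 0.62. Among the 14, 1 was called, where 1.89% of all genes tested were called. That gene was CPA4, which encodes a carboxypeptidase, is imprinted in some tissues and starts 193 kb from MEST. CPA4 was at 0.632, 0.580 and 0.602 FPKM with shControl and at 2.90, 2.84 and 2.79 FPKM with shEphexin1. The mean rose from 0.605 ± 0.0258 to 2.85 ± 0.0555 FPKM (SD, n = 3 each), 4.71-fold, with a log2 fold change of 2.06 (SE 0.16, limma adjusted p = 0.00114). With arm medians subtracted the log2 fold change of CPA4 was 1.77 (limma adjusted p = 0.0019). CPA4 was called under each of 20 alternative settings in which it was fitted, with adjusted p up to 0.0152.

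**Figure D2:**
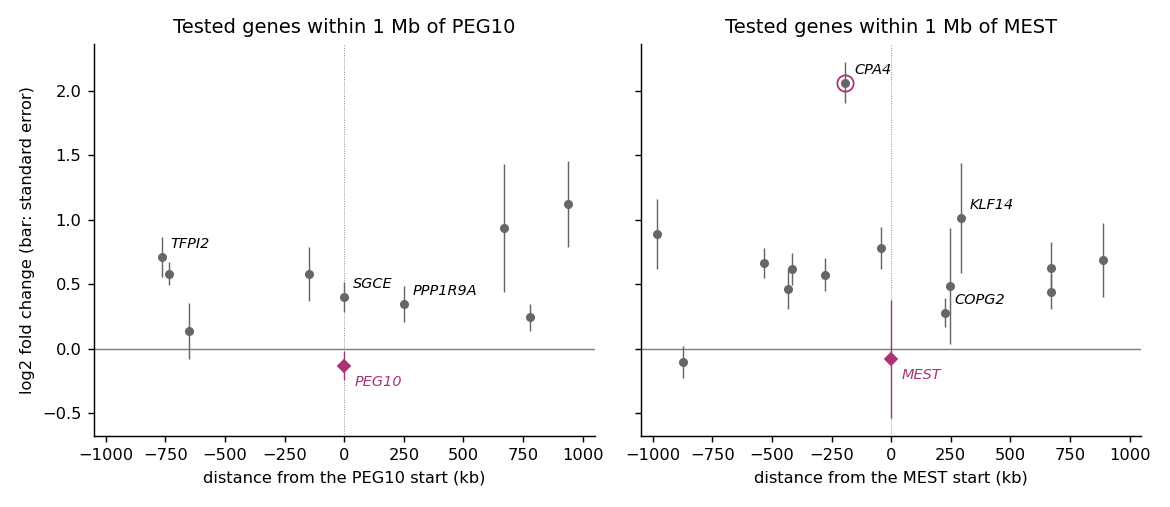
Log2 fold change (shEphexin1 against shControl, bar standard error) of every tested gene within 1 Mb of PEG10 (left) and of MEST (right), by distance of the gene start in kb. The member is the purple diamond, imprinted genes of the fixed list are named, and the ring marks CPA4, the one gene called. PEG10 and MEST sit below nearly all of their neighbours, at -0.13 and -0.079 against medians of 0.58 and 0.62.

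PHLDA2 and CDKN1C lie 43.65 kb apart on the short arm of chromosome 11, and both restrain growth of the placenta or fetus from the maternal copy. PHLDA2, a small pleckstrin homology domain protein, lies from 2949503 to 2950650 (GRCh37, minus strand). PHLDA2 was at 20.6, 12.9 and 22.03 FPKM with shControl and at 24.7, 16.5 and 20.01 FPKM with shEphexin1. Replicate 2 was the lowest library of each group, and the groups overlapped. The means were 18.5 ± 4.91 and 20.4 ± 4.13 FPKM (SD, n = 3 each), and the log2 fold change was 0.16 (SE 0.24, 95% interval -0.40 to 0.71, limma adjusted p = 0.752). Without shControl replicate 2 the direction turned to -0.084.

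CDKN1C encodes p57, an inhibitor of cyclin-dependent kinases that is mutated or silenced in Beckwith-Wiedemann syndrome, and lies on chromosome 11 from 2904443 to 2907005 (GRCh37, minus strand). CDKN1C was at 0.770, 0.361 and 1.11 FPKM with shControl and at 0.819, 0.966 and 0.411 FPKM with shEphexin1. Both groups spanned a range of more than 2-fold. The means were 0.747 ± 0.375 and 0.732 ± 0.288 FPKM (SD, n = 3 each), and the log2 fold change was 0.014 (SE 0.43, 95% interval -0.99 to 1.01, limma adjusted p = 0.990). With replicate 2 left out of both groups, the log2 fold change of CDKN1C was -0.58 (limma adjusted p = 0.313), and its direction is not settled by these libraries. Within 1 Mb of CDKN1C, 11 of 18 tested genes had a log2 fold change above 0, with a median of 0.087. None of the 18 was called (1.89% of all genes tested).

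H19 and IGF2, the pair of genes whose start positions are 154 kb apart on the same arm and whose shared enhancers serve one or the other according to the parental copy, gave almost no signal. IGF2 encodes insulin-like growth factor 2, the main fetal growth factor of this group, and H19 a long non-coding RNA. H19 (chromosome 11, 2016396 to 2025782, GRCh37, minus strand) was listed at 0 in 5 libraries and at 0.139 FPKM in shEphexin1 replicate 3. IGF2 (chromosome 11, 2150342 to 2179621, GRCh37, minus strand) was listed at 0 in all 6 libraries. The read-through transcript INS-IGF2, which shares IGF2 sequence and was looked up after the values had been seen, was listed at 0 in all 6 as well. A value of 0 is given here only as listed, because H3F3A, a histone gene that every cell uses, was also at 0 in all 6 libraries. In total, 6965 of the 26255 genes were listed at 0 in every library.

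GRB10, which encodes an adaptor that binds the insulin and IGF1 receptors and restrains their signal, lies on the short arm of chromosome 7 from 50657760 to 50861159 (GRCh37, minus strand). It was listed at 0 in all 6 libraries, and 1 gene within 1 Mb of it was tested. No fold change can be given for IGF2 or GRB10, and H19 had a value above 0 in 1 library of 6.

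PLAGL1 encodes a zinc finger transcription factor, also called ZAC1, that arrests the cell cycle and whose overexpression accompanies transient neonatal diabetes. It lies on chromosome 6 from 144261437 to 144385736 (GRCh37, minus strand). PLAGL1 was at 5.29, 5.21 and 4.31 FPKM with shControl and at 5.41, 5.997 and 4.78 FPKM with shEphexin1. The groups overlapped, with means of 4.93 ± 0.543 and 5.40 ± 0.606 FPKM (SD, n = 3 each). The log2 fold change was 0.13 (SE 0.15, 95% interval -0.23 to 0.48, limma adjusted p = 0.679), which leaves out a change of 2-fold in either direction. Genes near PLAGL1 were called in 0 of 10 cases (1.89% of all genes tested).

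PEG3 encodes a zinc finger protein of the paternal copy that acts in fetal growth and maternal behaviour, and lies on chromosome 19 from 57321445 to 57352096 (GRCh37, minus strand). PEG3 was at 0.268, 0.267 and 0.269 FPKM with shControl and at 0.196, 0.149 and 0.0973 FPKM with shEphexin1. Every shEphexin1 library lay below the control libraries, which were nearly equal. The means were 0.268 ± 0.00129 and 0.147 ± 0.0495 FPKM (SD, n = 3 each). The log2 fold change was -0.59 (SE 0.29, 95% interval -1.26 to 0.080), with a limma adjusted p of 0.271, and the exact two-sided permutation test gave p = 0.1, the smallest possible. These levels are close to the filter of 0.1 FPKM, and the added 0.1 FPKM shrinks the fold change of a gene so low. Of 45 tested genes within 1 Mb of PEG3, 20 had a log2 fold change above 0 and 1 was called (1.89% of all genes tested). The called gene was FKBP1AP1, a copy of FKBP1A whose reads may be shared with it (1.20 ± 0.251 and 2.86 ± 0.424 FPKM, SD, n = 3 each).

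**Figure D3:**
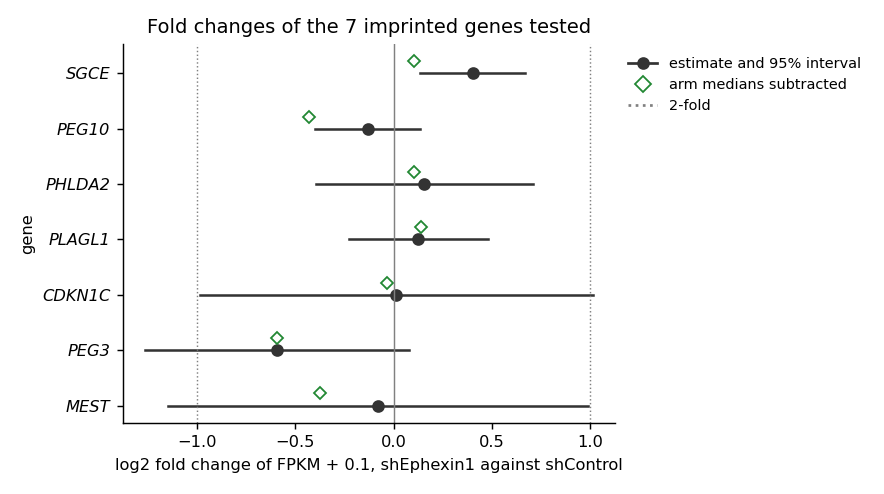
Log2 fold change of FPKM + 0.1 in shEphexin1 against shControl cells for the 7 imprinted genes tested (points), with 95% intervals, and the value with arm medians subtracted (open diamonds). Dotted lines mark 2-fold. The interval of SGCE alone lies clear of 0, from 0.14 to 0.67, and those of MEST, CDKN1C and PEG3 are the widest.

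IGF2 and GRB10 belong to the insulin-like growth factor (IGF) axis of ligands, receptors and binding proteins. Of 22 genes of this axis, 18 were tested, and 2 were called higher (INSR and IGFBP4) and 1 lower (IGFBP2), where 1.89% of all genes tested were called. Among the 18, 7 had an unadjusted p of at most 0.05 (23.3% of all genes tested) and 9 had groups that did not overlap (28.3% of all genes tested), and the median log2 fold change was 0.012. INSR encodes the insulin receptor, which also binds IGF2, and its mean rose from 0.135 ± 0.0489 to 1.44 ± 0.103 FPKM (SD, n = 3 each). The log2 fold change of INSR was 2.73 (SE 0.25, limma adjusted p = 0.00231), and it was called under each of 20 alternative settings. INSR was at 0.172, 0.0798 and 0.154 FPKM with shControl and at 1.51, 1.32 and 1.48 FPKM with shEphexin1.

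IGFBP2 and IGFBP4 encode secreted proteins that bind IGF2 and IGF1. IGFBP2 fell from 3.31 ± 1.39 to 0.647 ± 0.273 FPKM (SD, n = 3 each; log2 fold change -2.18, SE 0.36, limma adjusted p = 0.0174). IGFBP4 rose from 0.322 ± 0.0921 to 1.54 ± 0.435 FPKM (SD, n = 3 each; log2 fold change 1.94, SE 0.29, limma adjusted p = 0.0129). The groups of both did not overlap. The call of IGFBP2 was lost whichever library was left out (limma adjusted p from 0.0311 to 0.0620), and that of IGFBP4 was kept in 1 of 6 cases, without shEphexin1 replicate 2. IGFBP2 also lost its call without the filter (limma adjusted p = 0.0268) and with eBayes without trend (limma adjusted p = 0.0259), and IGFBP4 with a pseudocount of 1 FPKM, where its log2 fold change was 0.93. IGF2R, the receptor that takes up IGF2 for degradation, was at 16.4 ± 0.633 FPKM in control and 23.7 ± 2.21 FPKM in shEphexin1 cells (SD, n = 3 each). Its log2 fold change of 0.52 was not called (limma adjusted p = 0.0388). IGF1R, named after its values had been seen, was at 5.31 ± 0.131 and 7.0 ± 0.408 FPKM (SD, n = 3 each; limma adjusted p = 0.101), again without overlap. STC2, which inhibits the protease that releases IGF from its binding proteins, was at 4.17 ± 0.425 and 2.17 ± 0.462 FPKM (SD, n = 3 each; limma adjusted p = 0.0326).

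**Figure D4:**
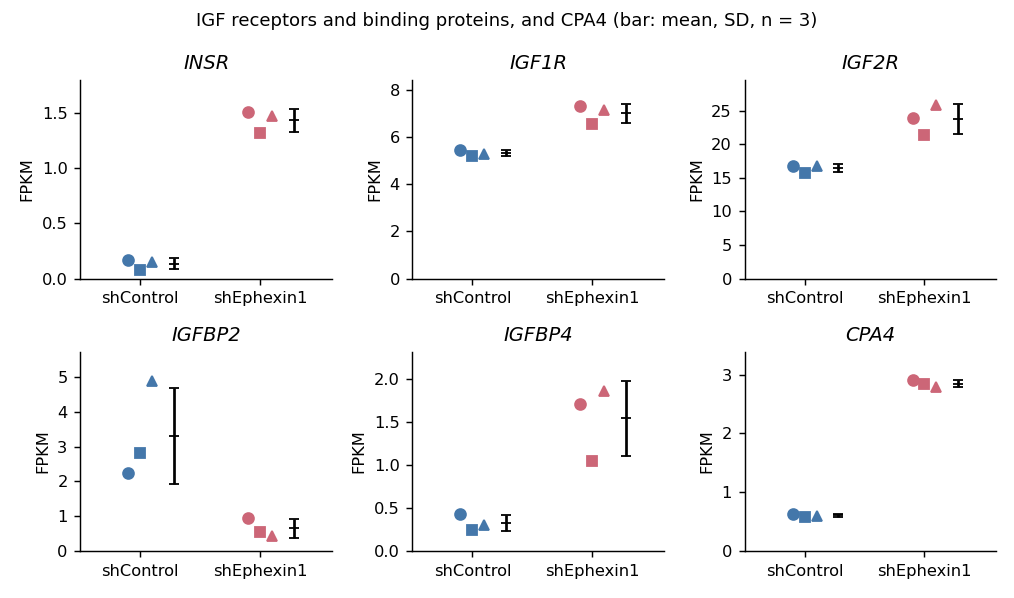
FPKM per library of 3 receptors (INSR, IGF1R, IGF2R) and 2 binding proteins (IGFBP2, IGFBP4) of the IGF axis and of CPA4, blue for shControl and red for shEphexin1, with mean and SD (n = 3) at the side and each axis starting at 0. The genes shown were picked with their values known, and no panel shows overlap between the groups. Of the 18 IGF axis genes tested, 9 had groups that did not overlap, against 28.3% of all genes tested. The values of INSR run from 0.0798 to 0.172 FPKM with shControl and from 1.32 to 1.51 FPKM with shEphexin1.

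Among 70 other imprinted genes listed, 40 were tested, and CPA4 was the 1 gene called, where 1.89% of all genes tested were called. IGF2R, given above, is also on this list. Of the 40, 12 had an unadjusted p of at most 0.05 (10 higher and 2 lower), against 23.3% of all genes tested, and 11 had groups that did not overlap, against 28.3%. Their median log2 fold change was 0.069. TFPI2, a protease inhibitor gene 766 kb from PEG10, was at 9.38 ± 1.04 and 15.5 ± 2.56 FPKM (SD, n = 3 each; log2 fold change 0.71, limma adjusted p = 0.0394). With arm medians subtracted, that of TFPI2 was 0.41 (limma adjusted p = 0.183). GNAS, which encodes the alpha subunit of the stimulatory G protein, was at 333.6 ± 21.4 and 240.6 ± 29.5 FPKM (SD, n = 3 each; log2 fold change -0.48, limma adjusted p = 0.0588). With arm medians subtracted, that of GNAS was -0.26 (limma adjusted p = 0.0941).

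The relatives of the 10 genes were also compared, because they share protein families with members of the group. Of 15 such paralogs 9 were tested and none was called (1.89% of all genes tested). CDKN1B, which encodes p27, the closest relative of CDKN1C, was at 33.4 ± 1.44 and 20.9 ± 0.327 FPKM (SD, n = 3 each), a log2 fold change of -0.67 that had a limma adjusted p of 0.0114 but was under 2-fold. CDKN1B lies on the short arm of chromosome 12, where 169 genes had a median log2 fold change of -0.43, and with arm medians subtracted its value was -0.21 (limma adjusted p = 0.189). PHLDA1, the relative of PHLDA2, was at 104.9 ± 4.001 and 70.0 ± 8.61 FPKM (SD, n = 3 each; log2 fold change -0.59, limma adjusted p = 0.0312). CDKN1A, which encodes p21, was at 39.7 ± 8.13 and 59.4 ± 10.9 FPKM (SD, n = 3 each; limma adjusted p = 0.133), and PLAGL2, the relative of PLAGL1, at 9.55 ± 0.156 and 7.24 ± 0.380 FPKM (SD, n = 3 each; limma adjusted p = 0.0828). The groups of 4 of the 9 paralogs did not overlap (28.3% of all genes tested): CDKN1B, PHLDA1 and PLAGL2 were lower and CDKN1A was higher in every shEphexin1 library than in any control library.

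Genes that set or keep imprints, such as the DNA methyltransferases, were not called in any of 17 tested of 20 (1.89% of all genes tested). Of the 17, 2 had an unadjusted p of at most 0.05, SMCHD1 and TDG (23.3% of all genes tested). Groups did not overlap for 1 of the 17 (28.3% of all genes tested). SMCHD1, a chromatin protein that silences imprinted clusters and the inactive X chromosome, was at 48.1 ± 9.36 and 33.7 ± 7.20 FPKM (SD, n = 3 each; limma adjusted p = 0.166). With the median of its own arm, the short arm of chromosome 18, subtracted, the log2 fold change of SMCHD1 went from -0.51 to -0.028. TDG, which removes the oxidised products of methylated cytosine, was at 9.73 ± 0.543 and 7.59 ± 1.28 FPKM (SD, n = 3 each; limma adjusted p = 0.199). HELLS (limma adjusted p = 0.263) and TRIM28 (limma adjusted p = 0.478) did not pass either.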

How the data were processed

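Stranded total RNA sequencing was done on H1299 cells, with 3 libraries for shControl and 3 for shEphexin1. By the study's methods and the submitters' processing notes, the authors used TopHat2 2.0.13 for mapping to GRCh37/hg19 and calculated the deposited FPKM with Cuffdiff of Cufflinks 2.2.1, using geometric library normalization. No read counts were used, so count-based tests were not run, the depth of each library is unknown, and no counting error is given. All 6 value columns were used and 0 left out.

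The values were transformed as log2(FPKM + 0.1), which understates the change of low genes. The comparison used limma 3.58.1 (R 4.3.3; eBayes, trend on), and p-values were adjusted after Benjamini and Hochberg over 16020 genes, those that reached 0.1 FPKM in 3 or more libraries. The thresholds for a call follow the study. Permutation tests are exact and two-sided. The pipeline was tested on simulated data. Positions are from GENCODE release 44 on GRCh37, and 23759 gene names were matched. Plots were drawn with matplotlib 3.10.9.

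The members and gene lists were chosen with earlier results of these data known. All members are named. From each list every called gene was named, and then genes in order of unadjusted p until 4 were named, beside every called gene within 1 Mb of a member and NGEF. Other names were chosen after their values had been seen, and the markers serve as a check. The 22 alternatives cover the pseudocount, filter, normalization, model terms, thresholds and each library left out. No p-value was adjusted over a list alone.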

Additional observations from a re-analysis of the deposited data

How the results depend on the processing

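None of the imprinted growth regulators was called under those of the 22 alternatives in which it was fitted. SGCE had a limma adjusted p of 0.00344 with the replicate block, 0.0236 with the GC and length correction and 0.0012 with both. It was 0.00416 with the replicate 2 term and 0.639 with arm medians subtracted. The log2 fold change of SGCE was at most 0.515, so the 2-fold threshold alone kept it from a call in some settings. IGF2 and GRB10 were fitted in none of them, and H19 only without the filter. CDKN1C, PEG3 and MEST were not fitted with the filter of 1 FPKM. NGEF was not called under any of the 22. Its adjusted p in limma was 0.00284 with the replicate block and 0.00119 with a correction for GC content and length. With both it was 0.00132 and with the replicate 2 term 0.00572, but the fold of NGEF stayed under 2. The number of genes called in all moved from 303 to 139 with a pseudocount of 1 FPKM. It was 525 with a correction for GC content and length, and 524 with that correction and the replicate block. It was 564 with the replicate 2 term, 464 at an adjusted p of 0.05 and 546 without a fold threshold. When single libraries were dropped it lay between 61 and 316. For CDKN1C the log2 fold change turned to -0.0038 with a pseudocount of 1 FPKM, -0.13 under quantile normalization, -0.093 with the GC correction (with and without the block), -0.58 in replicates 1 and 3 alone and -0.036 with arm medians subtracted, and lay between -0.37 and 0.33 when single libraries were dropped. MEST turned to 0.010 with a pseudocount of 1 FPKM and lay between -0.51 and 0.35 when single libraries were dropped, and PHLDA2 between -0.084 and 0.30. The cause was not tested. The other imprinted genes gave 2 calls with the replicate block or the replicate 2 term. The IGF axis gave 1 or 2 calls with each library left out and 2 with a pseudocount of 1 FPKM, without the filter or with eBayes without trend. The paralogs gave 1 without a fold threshold. These settings were applied to the lists after the data had been seen, as were the GC, replicate 2 and arm settings in an earlier look at these data. The replicate numbers did not pair the samples by the rule used (each of the correlations of deviations above 0.1), with 0.0914, 0.43 and 0.328 for numbers 1, 2 and 3, although each library correlated best with its own number. With replicate number as a block, 556 genes were called, none of them a member. The unknown depth limits the genes under 1 FPKM most, which are CDKN1C, PEG3, MEST and H19, beside IGF2 and GRB10, listed at 0.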

Other observations

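MAGEL2, a paternally expressed gene of the Prader-Willi region that lay under the filter and was looked at after its values had been seen, was at 0.101, 0.230 and 0.093 FPKM with shControl and listed at 0 in all 3 shEphexin1 libraries. IGF2BP1, IGF2BP2 and IGF2BP3 encode RNA-binding proteins named for their binding of IGF2 mRNA, a transcript listed at 0 in these cells. They were picked after their values had been seen, and were at 23.65, 32.1 and 21.2 FPKM on average in control cells and at 21.2, 27.1 and 19.3 FPKM in shEphexin1 cells, with log2 fold changes of -0.16, -0.24 and -0.14.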
